A study of Mus musculus with 10 samples.

Results

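Mast cells are tissue immune cells whose granules hold proteases and histamine. A set of 10 mouse genes that mark them was read on 10 arrays of cystic fibrosis knockout and control mice. Members were taken by symbol: the chymases Mcpt1, Mcpt2, Mcpt4 and Cma1, the tryptase Tpsb2, the carboxypeptidase Cpa3, the histamine-forming enzyme Hdc, the IgE receptor chains Fcer1a and Ms4a2, and the growth factor receptor Kit. All 10 were measured, through 14 probe sets, among 18193 genes with a probe set of their own. A total of 9 members were among the 13644 genes bright enough to be tested, and Fcer1a was not.

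The arrays were hybridised with total RNA from F2 mice of a cross between the B6 and BALB strains. There were 8 CF knockouts, in which the chloride channel gene Cftr is disrupted, and 2 controls, whose Cftr genotype is not spelled out. The titles place 5 knockouts under the code H and 3 under L, while both controls carry D. None of these codes is explained, the series title speaks of variable weight, and whatever D codes cannot be told apart from the absence of the knockout. Each title also holds the letter M or F and an animal number. Both controls, 1 of each letter, lie in the lower of 2 number ranges with 3 knockouts, and the upper range holds 5 knockouts only. Knockout H comprises 4 M and 1 F, knockout L 1 M and 2 F. Neither the knockout allele nor the age, diet or housing of the animals is given in the sources used here. The design text names other animal numbers, and further animals were not analysed here. Each array is taken as 1 animal from its own number, and nothing else says so, so the p-values speak to the spread among these 10 arrays and no further.

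The labels name right lung as the source, whereas an intestinal phenotype stands in the series title. The small intestine list had a median percentile of 99.3 among all genes and the lung epithelium list 85.2, so transcripts of both organs were present. Cftr read 134 ± 4.5 (SD, n = 2) in controls and 28.1 ± 6.6 (SD, n = 8) in knockouts, in the direction of the labels. Xist, transcribed in female cells, and the Y-linked Eif2s3y separated the arrays by letter without exception. Array medians lay between 18.4 and 18.8 on the linear intensity scale, the unit of every level given here. In the covariate-adjusted limma comparison of knockout and control, 4.31% of the 13644 genes passed the threshold, an adjusted p under 0.05. No control lies in the upper number range, so the range term takes up the level of the 5 knockouts there. The fitted knockout difference therefore contrasts the 3 lower-range knockouts with the 2 controls. Upper-range arrays enter only through the letter term and the spread. In the split by title code they also enter through the difference between H and L. Means over all 8 knockouts are a different contrast.

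Mouse mast cells fall broadly into a mucosal and a connective-tissue kind. Mucosal mast cells lie in and under the epithelium, above all in the gut, multiply in worm infection and make the chymases encoded by Mcpt1 and Mcpt2. Connective-tissue mast cells lie in skin, submucosa and serosa and make Mcpt4, Cma1, Cpa3 and tryptases. Both kinds depend on KIT, the receptor for stem cell factor, and can be triggered through the IgE receptor to release histamine and proteases.

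The chymase genes form a family on chromosome 14. In the RefSeq gene order the protein-coding genes there run Cma1, Cma2, Mcpt1, Mcpt2, Mcpt9 and Mcpt4, with no other protein-coding gene between them. The promoters of a bright member, Mcpt1, and a dim member of the same cluster, Mcpt4, are shown because the letters are alike, and that of Cpa3 because its level followed Mcpt1 from another chromosome. They run from 250 bases before to 50 bases after the gene start in RefSeq on GRCm38.p6, where 8 of the 10 members were matched, Mcpt2 and Tpsb2 being the other ones. Capitals mark every GATAA, the core of the motif bound by GATA factors, and every TATAAA, the core promoter element near the start, on either strand; a motif on the other strand appears as its reverse complement. Mcpt1 lies at chr14:56017714-56018013 on the plus strand, Mcpt4 at chr14:56062261-56062560 on the minus strand and Cpa3 at chr3:20242132-20242431 on the minus strand.
Mcpt1: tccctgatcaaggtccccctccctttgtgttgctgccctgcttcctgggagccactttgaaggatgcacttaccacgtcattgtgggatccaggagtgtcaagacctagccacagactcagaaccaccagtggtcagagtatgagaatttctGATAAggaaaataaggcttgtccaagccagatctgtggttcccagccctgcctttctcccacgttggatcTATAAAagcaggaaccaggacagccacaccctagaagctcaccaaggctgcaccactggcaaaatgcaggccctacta
Mcpt4: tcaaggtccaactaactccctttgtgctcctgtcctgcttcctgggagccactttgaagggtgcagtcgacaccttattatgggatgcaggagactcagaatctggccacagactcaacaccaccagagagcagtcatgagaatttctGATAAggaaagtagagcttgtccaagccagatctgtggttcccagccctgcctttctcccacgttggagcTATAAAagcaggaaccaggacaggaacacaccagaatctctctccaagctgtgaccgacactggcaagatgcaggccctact
Cpa3: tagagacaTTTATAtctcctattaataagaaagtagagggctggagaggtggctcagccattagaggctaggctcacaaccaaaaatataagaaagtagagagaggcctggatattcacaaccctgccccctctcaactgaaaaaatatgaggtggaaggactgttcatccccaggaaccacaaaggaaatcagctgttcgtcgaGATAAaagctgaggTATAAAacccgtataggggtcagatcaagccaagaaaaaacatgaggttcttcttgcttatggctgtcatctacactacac

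Aligned end to end, the promoters of Mcpt1 and Mcpt4 were identical at 249 of 301 positions (82.7%), with 10 gap positions and a longest shared run of 53 bases. Each held 1 GATAA and 1 TATAAA, in the same order, while Cpa3 held 1 GATAA and 2 TATAAA. Of all 32851 promoters of this length in the table, 25.4% held a GATAA and 13.6% a TATAAA. A match describes the letters and shows no binding.

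Among the proteases, Mcpt1 and Mcpt2 were far above the array medians, and both varied severalfold between arrays, in step with each other. Their means were higher in knockouts than in controls, but the groups overlapped and neither passed the test. With the brighter of its probe sets, Kit was higher in all 8 knockouts than in both controls. Its fitted difference, 1.75-fold (95% interval 1.22 to 2.50), fell short of the threshold. Cpa3 was dim yet also higher in every knockout than in both controls. Of all genes tested, 10% showed this separation and 11.7% the opposite one. Mcpt4, Cma1, Tpsb2, Fcer1a and Ms4a2 stayed near or below the array medians on every array. Hdc lay above them on every array with the brighter of its probe sets and below them with the other. In whole tissue, a difference in the number of mast cells cannot be told apart from one in RNA per cell.

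Mcpt1 encodes the mucosal mast cell protease mMCP-1, a beta-chymase released into the gut and blood during worm infection. It read 29.98 and 79.98 in the 2 controls. In knockout L it read 185, 82.7 and 101, and in knockout H 51.1, 112, 175, 56.3 and 100.2. The brightest array was 6.18-fold above the dimmest, which was a control, and 6 of 8 knockouts exceeded both controls. Group means were 55.0 ± 35.4 (SD, n = 2) in controls, 99.0 ± 50.1 (n = 5) in knockout H and 123 ± 54.8 (n = 3) in knockout L. The limma difference between knockouts and controls was 0.67 ± 0.44 (SE) on the log2 scale, adjusted p 0.454, with a 95% interval of −0.31 to 1.66. That interval holds both no difference and one of more than 3-fold. Leaving out 1 array moved the difference between 0.32, without control replicate 1, and 0.98, without control replicate 2.

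Mcpt2, the gene next to Mcpt1, encodes mMCP-2, a chymase-related protease of the same mucosal cells. Its controls read 41.9 and 65.6, its knockout L arrays 148, 93.5 and 102, and its knockout H arrays 51.2, 118, 166, 64.8 and 89.7. The same 6 of 8 knockouts lay above both controls as for Mcpt1, all 3 of group L and 3 of group H. The mean was 53.7 ± 16.8 (SD, n = 2) in controls and 104 ± 38.8 (SD, n = 8) in knockouts. The difference of 0.59 ± 0.37 (SE) in log2 did not pass, limma adjusted p 0.441. Probe positions were not used here, so how far the probe sets of these neighbouring, related genes read each other's transcripts was not tested.

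**Figure D1:**
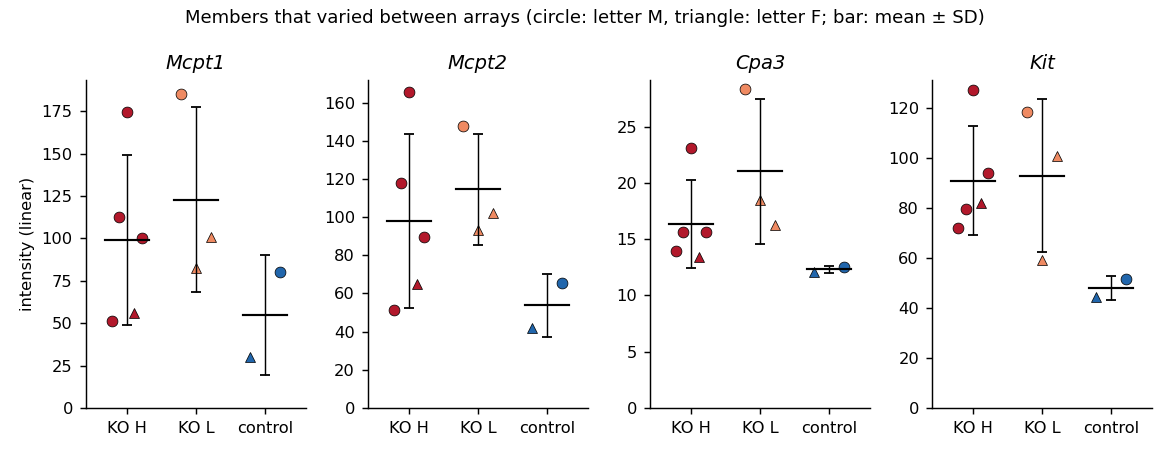
Linear intensity of Mcpt1, Mcpt2, Cpa3 and Kit on each array by title group (KO is knockout), with the group mean and SD as bars, circles for the letter M and triangles for F. All 8 knockouts lie above both controls for Kit and for Cpa3, whereas 6 of 8 do for Mcpt1 and for Mcpt2. Of all genes tested, 10% have all 8 knockouts above both controls.

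Kit encodes the stem cell factor receptor, which mast cells keep through life. In the gut it is also the defining receptor of interstitial cells of Cajal, the pacemaker cells of the muscle wall. It read 44.6 and 51.4 in the controls. The knockout L arrays read 119, 59.1 and 101, and the knockout H arrays 71.8, 79.8, 127, 82.0 and 93.9. With this probe set no knockout overlapped the controls, a separation in this direction that 10% of the genes tested showed, while 11.7% showed the opposite one. The mean was 91.7 ± 23.2 (SD, n = 8) in knockouts and 48.0 ± 4.8 (SD, n = 2) in controls. The limma difference was 0.81 ± 0.23 (SE) in log2, a fold of 1.75, and its adjusted p of 0.0877 missed the threshold.

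The call on Kit changed with the model. Without the covariates for letter and number range the limma adjusted p was 0.0467 (log2 difference 0.72). Among the 5 arrays of the lower number range, where all the controls lie, it was 0.0116 (0.77). Those 5 arrays also set the level of the main coefficient. With the smooth muscle or the lung epithelium list as a covariate it was 0.0499 and 0.0137. In the other 21 of the 25 alternatives Kit did not pass. Leaving out 1 array moved its log2 difference between 0.700 and 0.955. A second, dimmer probe set for Kit read 26.0 and 26.96 in the controls and 26.5 to 44.8 in the knockouts, so that knockout L replicate 2 overlapped the controls there. Its difference of 0.41 ± 0.13 (SE) also missed, limma adjusted p 0.118 over 23925 probe sets.

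Markers of interstitial cells of Cajal were read beside Kit. Ano1, the chloride channel that defines these cells, read 28.6 and 38.9 in controls and 29.8 to 69.8 in knockouts (log2 difference 0.57 ± 0.23 SE, limma adjusted p 0.221). Of the 5 genes of that list that were tested, Kit among them, 4 lay above 0 and 0 passed, with a median of 0.24. The summed list ran from 453 to 659 in knockout H, 526.1 to 657.1 in knockout L and 416 to 531 in controls. Pdgfra and Gja1, with means of 272.9 and 154.7 over all arrays, weigh most in that sum. Kit and Ano1 had means of 82.9 and 44.6, so the sum is no measure of these cells. How much of Kit came from mast cells and how much from interstitial cells was not tested.

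Cpa3 encodes carboxypeptidase A3, a granule exopeptidase that trims peptides cut by the chymases. It read 12.1 and 12.5 in the controls, 28.4, 18.5 and 16.3 in knockout L and 13.99, 15.6, 23.2, 13.4 and 15.7 in knockout H. Every knockout lay above both controls, a separation in this direction that 10% of the genes tested showed. Only replicate 1 of knockout L and replicate 3 of knockout H lay well above the array medians. Replicate 2 of knockout L lay at them, and the other knockouts lay below them. The limma difference was 0.14 ± 0.15 (SE) in log2, adjusted p 0.690, with a 95% interval of −0.21 to 0.49. The pseudocount of 16 is as large as these levels and shrinks log2 differences. Replicate 1 of knockout L and replicate 3 of knockout H are in the upper number range, whose level the range term takes up. The fitted difference therefore contrasts the lower-range knockouts with the controls, adjusted for letter. Over the 24 alternatives in which Cpa3 was tested, a smaller pseudocount among them, it ran from 0.055 to 0.283.

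The connective-tissue chymases were dim. Mcpt4, the main chymase of connective-tissue mast cells, read 11.4 to 19.4 over the 10 arrays, and Cma1, the alpha-chymase, 12.3 to 19.2. Tpsb2, the beta-tryptase stored in the same granules, read 14.2 to 20.4 with 1 probe set and 8.7 to 10.8 with the other. None of these genes was higher in all knockouts than in both controls. Their log2 differences between knockout and control were 0.09 for Mcpt4, 0.14 for Cma1 and −0.06 for Tpsb2, with limma adjusted p values of 0.725, 0.378 and 0.779.

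The IgE receptor chains were also near or below the array medians, whereas the histamine enzyme lay above them with the brighter of its probe sets. Fcer1a, which encodes the chain that binds IgE, read 9.7 to 14.6, under the filter. Ms4a2, the beta chain that amplifies the signal, read 13.1 to 19.9, and 5.6 to 6.7 with its second probe set. Hdc, histidine decarboxylase, the only enzyme that forms histamine, read 19.5 to 32.8, highest in control replicate 1 and lowest in knockout L replicate 1. With this probe set it therefore did not follow Mcpt1, which was lowest and highest on those same arrays. A second, dimmer Hdc probe set, under the filter, read 10.6 to 15.6. There the controls read 11.04 and 10.98 and knockout L replicate 1 read 11.5, so that order did not hold. With the brighter probe sets the log2 differences were 0.04 for Ms4a2 and −0.06 for Hdc, limma adjusted p 0.910 and 0.796.

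Genes of pigment cells, which neither lung nor gut is known for, were read on the same arrays. Tyr, Dct, Tyrp1 and Mlana read between 7.7 and 13.9, and Pmel, the other gene of that list, 19.5 to 30.6. Probe sets differ in how brightly they read a transcript, so levels of different genes are not set against each other, and a dim reading does not show that a gene is silent.

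**Figure D2:**
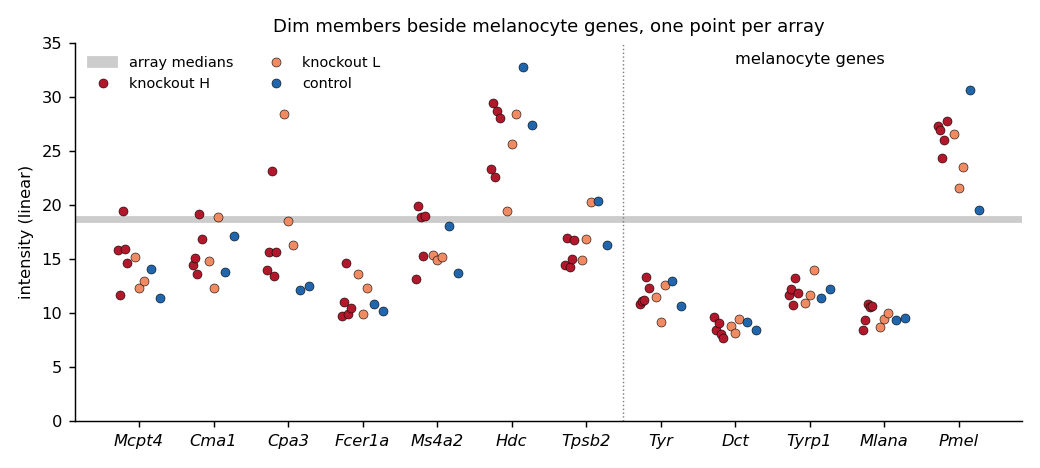
Linear intensity of the 7 dim members beside 5 melanocyte genes, each point 1 array, coloured by title group; the grey band spans the array medians, 18.4 to 18.8. Cpa3 rises well above the band on 2 arrays. Hdc, read with the brighter of its probe sets, and the melanocyte gene Pmel lie above it on all 10, while the others stay at or under about the band's height.

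Of the 9 members tested, 0 passed in the comparison of knockout and control, against 4.31% of all genes. At an unadjusted p under 0.05 there was 1 of 9, Kit, against 19.4% of all genes. The members' median log2 difference was 0.14, with 7 of 9 above 0, beside a median of 0.00 and 48.7% above 0 over all genes tested. The 5 dim members tested, Cpa3 aside, lay between −0.06 and 0.14.

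Split by the title codes, neither knockout group had a member past the threshold. Both were set against the same 2 controls, so their values are not independent. Knockout H against control called 0 of 9 members (2.43% of all genes) and knockout L against control 0 of 9 (0.344%). Mcpt1 differed from control by 0.48 ± 0.37 (SE) in knockout H and by 1.24 ± 0.44 in knockout L, limma adjusted p 0.562 and 0.242. For Mcpt2 these differences were 0.47 ± 0.36 and 0.96 ± 0.42, limma adjusted p 0.560 and 0.355. Kit differed by 0.75 ± 0.24 and 0.96 ± 0.28, limma adjusted p 0.144 and 0.171. Cpa3 differed by 0.08 ± 0.13 and 0.33 ± 0.16, limma adjusted p 0.824 and 0.393. All 4 genes thus had the larger fitted difference in knockout L.

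The direct comparison of the knockout groups called 0 members and 0 of all genes. Knockout H was lower than knockout L by −0.75 ± 0.33 (SE) in log2 for Mcpt1, with a 95% interval of −1.51 to 0.01. It was −0.49 ± 0.32 for Mcpt2, −0.26 ± 0.12 for Cpa3 and −0.20 ± 0.21 for Kit, each with a limma adjusted p of 0.9998. At an unadjusted p under 0.05 there were 0 of 9 members, against 303 of 13644 genes. The raw arrays overlapped throughout: knockout H replicate 3 was at or near the top for these 4 genes and knockout H replicate 1 near the bottom for Mcpt1 and Mcpt2. The codes H and L are also unevenly spread over the letters, which the fit adjusts for with few arrays.

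Between the letters, 0 of 9 members passed (0.022% of all genes did). Mcpt1 ranged from 51.1 to 185 with a median of 106 on the 6 M arrays and read 82.7, 56.3, 101 and 29.98 on the 4 F arrays. The fitted difference was 0.93 ± 0.32 (SE) in log2 in favour of M, with an unadjusted p of 0.0205 and a limma adjusted p of 0.934. It was 0.49 ± 0.31 for Mcpt2 and 0.39 ± 0.20 for Kit. Between the number ranges, a term that rests on the knockouts alone, 0 of 9 passed (0.3% of all genes), and Mcpt1 differed by −0.13 ± 0.33.

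**Figure D3:**
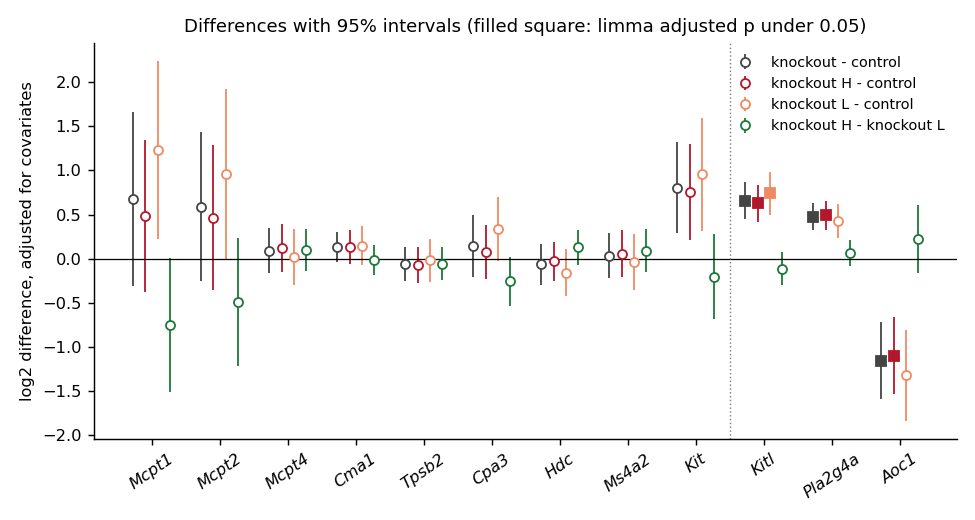
Fitted log2 differences for the 9 tested members, left of the dotted line, and for Kitl, Pla2g4a and Aoc1, right of it, with 95% intervals as bars; filled squares passed the limma threshold. No member has a filled square, and the intervals of Mcpt1 and Mcpt2 are several times wider than those of the dim members.

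The spread of Mcpt1 over the arrays was shared with some members and not with others. Correlations of log2 level were computed for all 36 pairs of the 9 tested members over the 10 arrays, and p-values were adjusted over the 36. By Pearson's r 6 pairs passed, and by Spearman's rho 3. Mcpt1 and Mcpt2 correlated with r 0.97 and rho 0.98, permutation p 1e-05 for r, the smallest 100000 permutations can give, and 3e-05 for rho (adjusted 0.00036 and 0.00108). Without the 2 arrays farthest from the median of Mcpt1, knockout L replicate 1 and control replicate 1, r was 0.96, and among the 8 knockouts it was 0.97. Each of these genes was the other's closest match among all 13644 genes tested.

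Cpa3 followed both chymases, with r 0.85 and rho 0.84 against Mcpt1 (permutation p adjusted over the 36 pairs 0.016 and 0.0427) and r 0.85 and rho 0.85 against Mcpt2 (0.0149 and 0.0427). Without the 2 farthest arrays r was 0.79 and 0.80. Kit had r 0.81 and rho 0.79 against Mcpt1 (adjusted permutation p 0.0304 and 0.0708) and r 0.81 and rho 0.76 against Mcpt2 (0.0304 and 0.0766), so rho missed the threshold. These r fell to 0.62 and 0.61 without the 2 farthest arrays. Among all genes tested, ordered by Pearson's r, Kit ranked only 129th for Mcpt1 and 149th for Mcpt2. For Cpa3 and Kit r was 0.74 and rho 0.77, which missed (adjusted permutation p 0.0571 and 0.0708). For that pair r was 0.47 without replicate 1 of knockout L and replicate 3 of knockout H, 0.63 among the 8 knockouts, and 0.77 and 0.93 in the upper and the lower number range, of 5 arrays each.

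Hdc, read with the brighter of its probe sets, ran the other way. Against Cpa3 it had r −0.82 and rho −0.68 (permutation p adjusted over the 36 pairs 0.0304 and 0.156), and r was −0.37 without replicate 1 of knockout L and replicate 3 of knockout H, so the relation rested on them. Against Mcpt1 it had r −0.66 and rho −0.45 (0.150 and 0.456). The other dim members had r of 0.21 (Mcpt4), 0.25 (Ms4a2), −0.06 (Cma1) and −0.40 (Tpsb2) with Mcpt1, none of which passed.

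**Figure D4:**
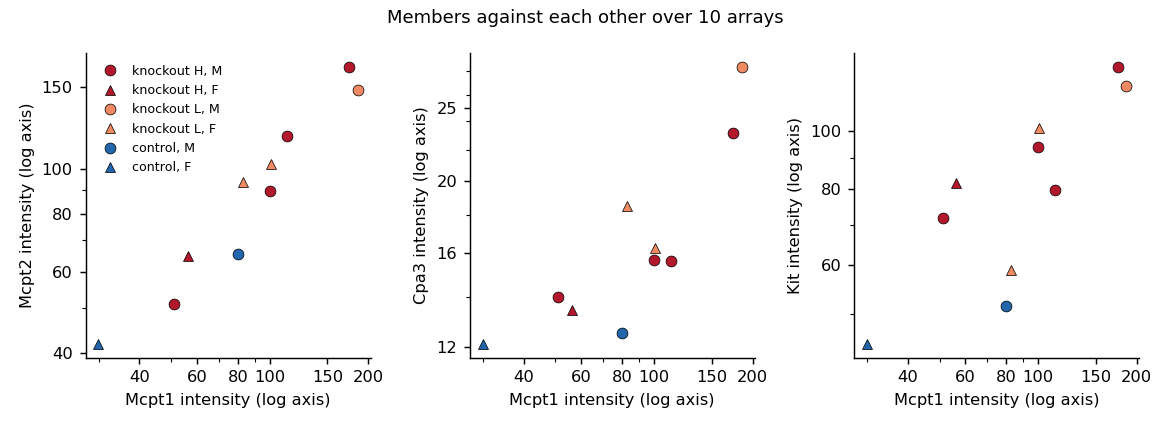
Mcpt2, Cpa3 and Kit against Mcpt1 over the 10 arrays, on log axes of linear intensity, coloured by group, with circles for M and triangles for F. The points of Mcpt2 lie along a line (r 0.97), and replicate 1 of knockout L and replicate 3 of knockout H form the upper right end in each panel.

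Replicate 1 of knockout L and replicate 3 of knockout H were the 2 highest arrays for Mcpt1, Mcpt2, Cpa3, Kit and the dim Fcer1a alike. The same arrays were the highest in the tuft cell list, epithelial chemosensory cells of the type 2 response, with mean log2 deviations of 0.38 and 0.41. Its gene Rgs13 read 94.7 and 99.2 there and 17.0 to 51.9 elsewhere. They were above average in smooth muscle transcripts (0.33 and 0.47), as were knockout L replicate 3 (0.41) and control replicate 2 (0.65). They were below average in T and NK cell transcripts (−0.36 and −0.41) and in lung epithelium (−0.37 and −0.62). The part of tissue composition in the spread of the proteases was not tested. Leaving out the 2 arrays highest in lung transcripts, knockout H replicates 2 and 5, called 0 members in all 6 comparisons.

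The genes most like each bright member, by Pearson's r over the 10 arrays with the other members set aside, were of varied kind. For Mcpt1 the 5 closest were Gja1 (0.94), Mia3, Gyg, Nfat5 and Ktn1 (0.92). For Mcpt2 they were F3, which encodes tissue factor (0.95), Ppil4, Gyg, Ppp1r2 and Mia3 (0.93). Gyg and Mia3 stand in both lists, which share the near-identical profiles of their query genes. For Kit they were Trim24 (0.98), Zdhhc17, Cd24a, Adam9 and Dennd11 (0.96), and for Cpa3 Stim2 (0.93), Zcchc9, B230216N24Rik, Ppil4 and Gpd2 (0.90). With 10 arrays and 13644 genes such values describe these arrays only. Among the dim members, the closest gene had r 0.97 for Mcpt4 (Osgepl1), 0.90 for Cma1 (Zfp213) and Ms4a2 (Otud7a), 0.94 for Hdc (Palmd) and 0.99 for Tpsb2 (Usp18).

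Genes around the receptor gave 1 call. Kitl encodes stem cell factor, the ligand of KIT, made by epithelium, fibroblasts and other stromal cells. It read 288 and 325 in the controls, 558, 516 and 460 in knockout L and 492, 466.1, 525, 465 and 532 in knockout H. The groups did not overlap, a separation in this direction that 10% of the genes tested showed. The mean was 502 ± 36.4 (SD, n = 8) in knockouts and 306 ± 26.2 (SD, n = 2) in controls. Kitl rose in the knockouts by 0.66 ± 0.09 (SE) in log2, 1.58-fold, limma adjusted p 0.0124. It also passed in knockout H (0.63, limma adjusted p 0.0278) and in knockout L (0.74, 0.0487), against the same 2 controls.

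The Kitl call was sensitive to the controls and to the probe set. Without control replicate 1, where 0 of all genes passed, and without control replicate 2 it was lost, with limma adjusted p 0.158 and 0.0727. The call in knockout H held in 3 of 10 leave-outs, those of knockout H replicates 1, 2 and 3 (limma adjusted p 0.0517 to 0.248 in the others). The call in knockout L held in 2 of 10, those of knockout H replicates 2 and 3 (0.0735 to 0.536 in the others). With the mean of all Kitl probe sets the limma adjusted p was 0.0536 for all knockouts, 0.0977 for knockout H and 0.159 for knockout L. A second Kitl probe set gave 0.74 ± 0.14 (SE), limma adjusted p 0.0249, while the 2 dimmest gave 0.12 and 0.04 with adjusted p 0.737 and 0.909. Of the 9 tested genes of KIT signalling and mast cell growth, Kitl alone passed, 5 lay above 0 and the median was 0.02. Il33, an alarmin that acts on mast cells, read 20.4 and 29.3 in controls and 34.2 to 72.6 in knockouts, with a difference of 0.74 ± 0.21 (SE) that missed, limma adjusted p 0.0877. Pik3cd (0.02) and Stat5b (−0.06) were among the genes of this list that did not pass.

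In granule and histamine handling, Aoc1 was the gene of 8 tested that passed. It encodes diamine oxidase, the enzyme with which the gut breaks down histamine outside cells. It read 3234 and 2139 in the controls, 1082, 1749 and 1066 in knockout L and 1303, 1361, 1024, 1358 and 1260 in knockout H. All knockouts were below both controls, as for 11.7% of the genes tested. Aoc1 fell by 1.16 ± 0.19 (SE) in log2 in the knockouts, to 0.449 of the control level, limma adjusted p 0.0175. In knockout H it fell by 1.10, limma adjusted p 0.0353, and in knockout L the difference was −1.32, limma adjusted p 0.0638.

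Part of the small intestine list was lower in the knockouts as well. The summed small intestine list read 42530 and 44276 in the controls, 28053 to 35583 in knockout L and 28871 to 31538 in knockout H, and 4 of its 13 tested genes, Cdx2, Vil1, Anpep and Fabp2, fell in the knockouts. The list's median was −0.51, and 4 of its genes lay above 0, among them Apoa4 (0.65, limma adjusted p 0.475), which was higher in all 8 knockouts than in both controls. In knockout L 0 of the 13 passed, with 7 at an unadjusted p under 0.05, against 14.4% of all genes. The part of epithelial content in the difference of Aoc1 was not tested. The call was lost without control replicate 1, control replicate 2 or knockout H replicate 4 (limma adjusted p 0.215, 0.0823 and 0.0558). The call in knockout H held in 3 of 10 leave-outs, those of knockout H replicates 2, 3 and 5 (0.0528 to 0.294 in the others), and knockout L passed without knockout H replicate 3 (0.0312). In the same list Srgn, the proteoglycan core of mast cell and other granules, differed by 0.20, Lamp1 by −0.29 and Ddc by −0.64, with limma adjusted p 0.826, 0.0867 and 0.399. Slc18a2, the transporter that loads histamine into granules, read 6.4 to 10.8, too dim to test.

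In the eicosanoid list, Pla2g4a was the gene of 7 tested that passed. It encodes cytosolic phospholipase A2, which frees arachidonic acid for prostaglandins and leukotrienes in many cell types. It read 63.2 and 67.3 in controls, 99.4, 88.3 and 90.4 in knockout L and 98.4, 104, 108, 94.1 and 102 in knockout H. All knockouts were above both controls, as for 10% of the genes tested. Pla2g4a rose by 0.48 ± 0.07 (SE) in log2, 1.39-fold, limma adjusted p 0.0127, and the call was lost without control replicate 1 (0.143) or control replicate 2 (0.0890). It also passed in knockout H (0.49, limma adjusted p 0.0278), a call that held in 3 of 10 leave-outs, those of knockout H replicates 1, 2 and 3 (0.0518 to 0.248 in the others). In knockout L the limma adjusted p was 0.0796. Alox5ap, Lta4h and Alox5, which carry arachidonic acid on to leukotrienes, differed by 0.59, −0.38 and 0.21 with limma adjusted p 0.335, 0.248 and 0.645. The list had 6 of 7 genes above 0 and a median of 0.18.

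**Figure D5:**
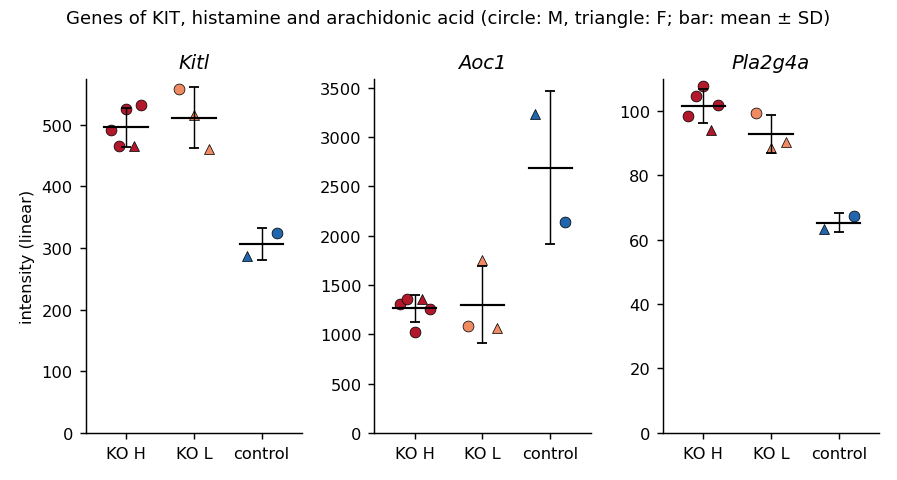
Linear intensity of Kitl, Aoc1 and Pla2g4a on each array by title group, with group mean and SD as bars, circles for M and triangles for F. For Kitl and Pla2g4a all 8 knockouts lie above both controls, and for Aoc1 all 8 lie below. Of all genes tested, 10% show the former and 11.7% the latter.

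The signalling genes downstream of the IgE receptor lay mostly below 0. Of 13 tested, 0 passed and 1 lay above 0, with a median of −0.12. At an unadjusted p under 0.05 there were 2 of 13, beside 19.4% of all genes. Fcer1g, the gamma chain that other Fc receptors also use, differed by −0.11, the kinase gene Syk by −0.11, Plcg2 by −0.23 and Rabgef1 by −0.078, with limma adjusted p 0.867, 0.620, 0.275 and 0.716. The T and NK cell list had 0 of 10 tested genes above 0, with a median of −0.49, and 0 passed. The part of lymphocyte content in the signalling genes was not tested.

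The list of type 2 cytokines and alarmins also holds receptor, chemokine and response genes. It had 7 of 7 tested genes above 0 and 0 passed, with a median of 0.40. At an unadjusted p under 0.05 there were 3, against 19.4% of all genes. Of the cytokines and alarmins themselves, only Il13, which read 13.8 to 21.0, and Il33 were bright enough to test. Clca1, a goblet cell gene induced by interleukin 13, differed by 0.40, Il13ra1 by 0.23 and Ccl11, the eosinophil attractant eotaxin, by 0.91, with limma adjusted p 0.404, 0.427 and 0.199. Il4, Il5, Il25 and Tslp read under 14 on every array. Of the 15 genes of this list 14 were measured, so 7 were too dim to test.

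The remaining lists held no call. Mast cell transcription factors had 5 of 8 genes above 0 and a median of 0.06, with Gata2, which drives mast cell identity, at 0.10, Lmo2 at −0.12 and Zfpm1 at 0.049 (limma adjusted p 0.727, 0.826 and 0.844). Homing and TGF beta genes had 6 of 12 above 0 and a median of −0.03, with Tgfbr2 at 0.56, Smad3 at −0.17 and Tgfbr1 at 0.08 (limma adjusted p 0.085, 0.307 and 0.834). Surface genes had 3 of 6 above 0 and a median of −0.02, and the tetraspanin gene Cd9 differed by 0.81, Il4ra by 0.17 and Cd48 by −0.075 (limma adjusted p 0.159, 0.661 and 0.955). Protease inhibitors and substrates had 2 of 5 above 0 and a median of −0.14, with Serpinb6a at −0.14, Serpinb1a at 0.016 and Slpi at −0.19 (limma adjusted p 0.595, 0.971 and 0.754). The serotonin list had 4 of 6 above 0 and a median of 0.04, with Chgb at 0.31 and Tac1 at 0.47 (limma adjusted p 0.555 and 0.516). Among other mast cell proteases, Tpsg1, a membrane-anchored tryptase, read 77.8 to 153 and differed by 0.35, limma adjusted p 0.547, while Tpsab1 read 12.9 to 19.1.

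Markers of other granulocytes were mostly dim. The basophil protease Mcpt8 read 9.5 to 14.8 and Cd200r3 7.6 to 9.8. The eosinophil granule genes Prg2 and Epx read 7.0 to 8.6 and 7.9 to 12.5, and Prg3 13.3 to 16.9. Siglecf, a surface lectin of eosinophils, ranged more widely, from 9.1 to 45.5, with its highest readings in knockout H replicate 3 and knockout L replicate 1. The 3 eosinophil genes tested lay above 0, with a median of 0.23, and 0 passed. The basophil list summed to 45.2 to 53.8 in knockout H, 44.4 to 59.4 in knockout L and 51.9 to 53.4 in controls. The members themselves summed to 279 to 594 in knockout H, 346 to 573 in knockout L and 238 to 305 in controls. Mcpt1, Mcpt2 and Kit had the highest mean levels and so weigh most in that sum, which is no measure of mast cell number. Of 9 tested neutrophil genes 0 passed and 7 lay above 0, with a median of 0.14. S100a8 and S100a9, the first on that list, differed by 1.04 and 1.12, limma adjusted p 0.147 and 0.176, whereas Camp differed by −0.04 and was below both controls in 6 of 8 knockouts. Outside the small intestine list, the marker genes that passed were Mrc1, a macrophage receptor, and Vip, a neuropeptide of enteric neurons, which rose by 0.48 and 1.43 in log2, limma adjusted p 0.0408 and 0.0285.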

How the data were processed

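Gene expression was measured with oligonucleotide arrays on biotin-labelled total RNA. The authors deposited linear intensities, 1 column per array, and the sources used here do not say how these were summarized, background-corrected or normalized; no further normalization was applied. Probe sets with several symbols named no gene, symbols were updated by gene ID with the RefSeq list of GRCm38.p6, and each gene took its brightest probe set by mean over the arrays. From the deposited intensities, log2(intensity + 16) was computed, genes at or under the 25th percentile of the mean were left out, and limma 3.58.1 (lmFit, eBayes) in R 4.3.3 was fitted over all 13644 genes with letter and number range as covariates. P-values were adjusted by Benjamini-Hochberg at 0.05. Differences are limma coefficients on that scale, adjusted for the covariates, and the pseudocount understates those of dim genes. Arrays have no read depth, and their number, above all the 2 controls, limits the precision. Correlations used 100000 permutations, 2-sided, in SciPy 1.17.1, and promoters were aligned with Biopython 1.88. The scripts were tested on simulated data.

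Members and gene lists were chosen with earlier results of these data known, so no list is independent support. Named are the members, the genes of each pathway list that passed and up to 3 others by mean intensity, defining markers where they bear on a result and those that passed, and the 5 genes most like each member; for dim members only the closest is printed. Some other genes of the lists were named after their values were seen: Slc18a2, Fcer1g, Il4, Il5, Il13, Il25, Tslp, Rgs13, Siglecf, Camp and Apoa4. Alternatives changed covariates, pseudocount, filter, normalization, probe-set rule, arrays and tissue covariates.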

Additional observations from a re-analysis of the deposited data

Results flagged for a closer look

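Single arrays stood apart within the 5 knockout H arrays for 3 of the genes followed. For Cpa3, knockout H replicate 3 was the highest at an intensity of 23.15, and the gap to the next array took 0.746 of the group's log2 range, above Dixon's 95% critical value of 0.71. For Fcer1a the same array was the highest at 14.584, with a ratio of 0.714, although the level is under the filter for dim genes. For Aoc1 the same array was the lowest at 1024.148, with a ratio of 0.727. A total of 26 groups were examined, the 5 knockout H arrays and the 8 knockouts for each of the members and of Kitl, Aoc1 and Pla2g4a, and chance alone marks about 1 in 20.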

How the results depend on the processing

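No paired analysis was possible because the labels give no replicate numbers that groups share; replicates were numbered in accession order, so no replicate block was fitted. The count of members past the threshold was 0 as reported in all 6 comparisons. For knockout against control it became 1, always Kit, without covariates, with the lower number range only, and with the smooth muscle or the lung epithelium covariate. For knockout H against control it became 1 with the lung covariate (Kit). The lower range holds 5 arrays with 1 knockout L array among them, too few for a fit with title code and letter. The counts there for knockout H and for knockout L against control are therefore not read. Over the leave-outs the count for knockout L against control ranged from 0 to 1 (Kit, without knockout H replicate 3, limma adjusted p 0.0489). The share of all genes that passed in each of these settings is not given here, so the member counts cannot be set against it. Leaving out 1 array turned the sign of small log2 differences: knockout against control ranged from −0.0091 to 0.21 for Mcpt4, −0.11 to 0.21 for Ms4a2, −0.12 to 0.00093 for Hdc and −0.11 to 0.0065 for Tpsb2, and knockout H against control from −0.030 to 0.18 for Cpa3. Ms4a2 was also reversed, at −0.055, without the 2 arrays highest in lung transcripts, and Kit between knockouts H and L, at 0.024, with the smooth muscle covariate. The causes were not tested. Over all alternatives, genes past the threshold numbered 0 to 1366 for knockout against control (588 as reported), 0 to 1143 for knockout H (331) and 0 to 761 for knockout L (47); no gene passed without control replicate 1. Mcpt1, Mcpt2 and Kit kept a positive difference from control under every alternative in all 3 of these comparisons. A letter or range term could not be fitted where the alternative drops it.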
